A study of Mus musculus with 12 samples.

Results

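The 8 genes described here encode the membrane enzymes that desaturate and elongate fatty acids: the stearoyl-CoA desaturases Scd1 and Scd2, the fatty acid desaturases Fads1 and Fads2, and the elongases Elovl1, Elovl2, Elovl5 and Elovl6. They were chosen by the gene name that the array files give for each probe outside the control spots. Of 18052 genes that passed the filter on dim probes, these were 8, and all 8 members passed. They are read by 10 probes, with 2 probes each for Fads2 and Elovl1. The mice were F2 males of the C3H/HeN strain at about 74 weeks of age, and their liver RNA was hybridised to 12 one-colour (Cy3) Agilent arrays in 4 groups of 3. In the arsenite line, sodium arsenite was given to pregnant F0 dams at 85 ppm in tap water between days 8 and 18 of gestation. In the control line the F0 dams drank plain tap water. F1 mice of the arsenite line were thus in utero while their dams drank arsenite. After birth, F1 mice, mated at 10 weeks, and the F2 mice themselves received no arsenite. The groups were non-tumour liver of the control line (control non-tumour), normal liver of the arsenite line (normal), non-tumour liver of the arsenite line (non-tumour) and liver tumours of the arsenite line (tumour). Control mice without tumours and control tumours, which the series also names, were not analysed here, so no comparison sets tumours of the exposed line against tumours of the control line. The labels number the samples of each group 1 to 3 and do not say which came from one animal, so p-values reflect only how these samples vary, which may be technical.

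As background, the liver makes saturated palmitate and stearate and then modifies them at the endoplasmic reticulum. Stearoyl-CoA desaturases insert the first double bond and give palmitoleate and oleate, the main monounsaturated fatty acids of triglycerides and phospholipids; Scd1 is the dominant form in adult mouse liver, whereas Scd2 is best known from brain and from the liver before weaning. Fads2 (delta-6 desaturase) and Fads1 (delta-5 desaturase) act in turn on the essential fatty acids taken from the diet, with Elovl5 and Elovl2 lengthening the chain between and after those steps, and so lead to arachidonate and docosahexaenoate. Elovl6 turns palmitate into stearate, and Elovl1 builds saturated and monounsaturated very long chains for sphingolipids. In liver, several of these genes are targets of the lipogenic factor SREBP-1c (gene Srebf1), of the liver X receptor and of PPAR alpha.

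The Scd1 and Scd2 probes are shown first, because these close paralogues differ widely in the results below and each is read by 1 probe. The first 30 bases of each probe of 60 bases, as the files print them, were:
Scd1: actcctgggctaagtatctgacagtctcac
Scd2: acatttggggatcctctgcagaggagtatt
On mm9, the build of the array annotation, the Scd1 probe lies at chr19:44469387-44469446 and the Scd2 probe at chr19:44381024-44381083. The longest run of letters that the full Scd2 probe shares with the full Scd1 probe, on either strand, was 6 bases. Probe was compared with probe and not with the other gene's whole transcript, so binding of that transcript was not tested. The brightest probe named Scd3 also lists the accession of Scd1 in the array annotation, so its signal cannot be assigned to Scd3 alone. The other probes were read on mm9 at chr19:10270530-10270589 (Fads1), chr19:10137760-10137819 and chr19:10163229-10163288 (Fads2), chr4:118105163-118105222 and chr4:118104741-118104800 (Elovl1), chr13:41277884-41277943 (Elovl2), chr9:77832205-77832264 (Elovl5) and chr3:129341248-129341307 (Elovl6). Exon and UTR annotation on that build was not used here.

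Upstream sequence from RefSeq (GRCm38.p6) matched 5 of the 8 members by symbol: Fads2, Elovl1, Elovl2, Elovl5 and Elovl6. The 250 bases before the start site are shown for the 3 of them that were higher in tumours, in the gene's 5′ to 3′ direction. Capitals mark matches to 4 motifs on either strand. The sterol regulatory element bound by SREBPs was searched as TCACNCCAC. The E-box, bound by USF and ChREBP among other factors, was searched as CACGTG. The box bound by NF-Y was searched as CCAAT. The GC box, bound by SP1 and related factors, was searched as GGGCGG.
Fads2, chr19:10101504-10101753, minus strand: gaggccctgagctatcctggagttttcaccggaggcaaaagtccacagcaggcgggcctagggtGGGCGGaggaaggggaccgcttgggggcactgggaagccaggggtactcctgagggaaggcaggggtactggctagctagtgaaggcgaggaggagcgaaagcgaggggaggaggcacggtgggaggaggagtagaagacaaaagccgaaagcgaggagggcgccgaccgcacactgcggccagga
Elovl2, chr13:41220404-41220653, minus strand: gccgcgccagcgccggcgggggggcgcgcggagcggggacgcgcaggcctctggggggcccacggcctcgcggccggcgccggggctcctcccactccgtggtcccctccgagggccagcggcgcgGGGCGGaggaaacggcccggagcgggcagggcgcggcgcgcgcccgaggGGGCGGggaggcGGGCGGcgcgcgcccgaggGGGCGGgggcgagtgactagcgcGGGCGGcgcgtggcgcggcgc
Elovl5, chr9:77917115-77917364, plus strand: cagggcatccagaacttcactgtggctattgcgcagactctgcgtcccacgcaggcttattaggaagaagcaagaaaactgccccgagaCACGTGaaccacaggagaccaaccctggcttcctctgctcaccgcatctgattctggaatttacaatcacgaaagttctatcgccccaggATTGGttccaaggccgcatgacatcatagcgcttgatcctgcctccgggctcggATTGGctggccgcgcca
Elovl5 had 1 E-box and 2 CCAAT boxes in this window, Elovl2 had 5 GC boxes and Fads2 had 1. A further Elovl2 window of the same table, not shown, held none of the 4 motifs. No motif overlapped another in these 3 windows. No SRE of this spelling was found in any of the windows of these 5 members. Of the members not higher in tumours, Elovl1 had 5 GC boxes and 1 CCAAT box in 1 window and 2 GC boxes in another. Elovl6 had none of the 4 motifs. Among all 32851 promoter windows of that length, 1.05% held the SRE, 6.02% an E-box, 33.8% a CCAAT box and 32.7% a GC box. A match describes the letters of the window and is no evidence of binding.

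Values are log2 of the processed signal minus the 75th percentile of the same array, so 0 is the level below which 75% of the spots outside the controls fall. Every member probe was well above background on 12 of 12 arrays, and none was saturated or missing on any array. A gene was called higher or lower when its adjusted p in limma's fit over the 12 arrays was under 0.05. Tumour arrays lay on a slide of their own and normal arrays on another, whereas both non-tumour groups shared a slide. Slide and tissue therefore cannot be told apart in the tumour comparisons, nor between non-tumour and normal liver. Only the line comparison in non-tumour liver lies within 1 slide. Spike-in probes, 4 of them bright, differed by a median of 0.15 between tumour and non-tumour and by -0.12 between tumour and normal. They differed by -0.26 between non-tumour and normal and by -0.27 between arsenite and control non-tumour liver. The median over all genes was -0.13 for tumour minus non-tumour and -0.15 for tumour minus normal. Under quantile normalization the former became -0.02, and 49.6% rather than 36.2% of all called genes were the higher ones in tumours. In the tumour and normal comparison, that share moved from 35.6% to 50.2% with quantile normalization and to 59.5% with median scaling. Median scaling also moved the all-gene median of the line comparison from -0.015 to 0.23. For non-tumour minus normal it moved that median from 0.0003 to 0.29.

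Against non-tumour liver of the same line, 5 of the 8 members were higher in tumours, namely Scd2, Fads1, Fads2, Elovl2 and Elovl5, and none was lower. Of all genes tested in this comparison, 16.9% were called higher and 29.7% lower. Against normal liver, the same 5 members were higher and Elovl1 was lower, beside 17.1% of all genes called higher and 30.8% called lower. The sizes differed widely: the desaturase Scd2 was 91.3-fold brighter in tumours than in non-tumour liver, Fads2 3.21-fold, Fads1 2.47-fold, Elovl2 1.62-fold and Elovl5 1.36-fold. Scd1, Elovl1 and Elovl6 did not pass the test against non-tumour liver, and Scd1 and Elovl6 did not pass it against normal liver. Both comparisons share the 3 tumour arrays and are not independent of each other.

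**Figure D1:**
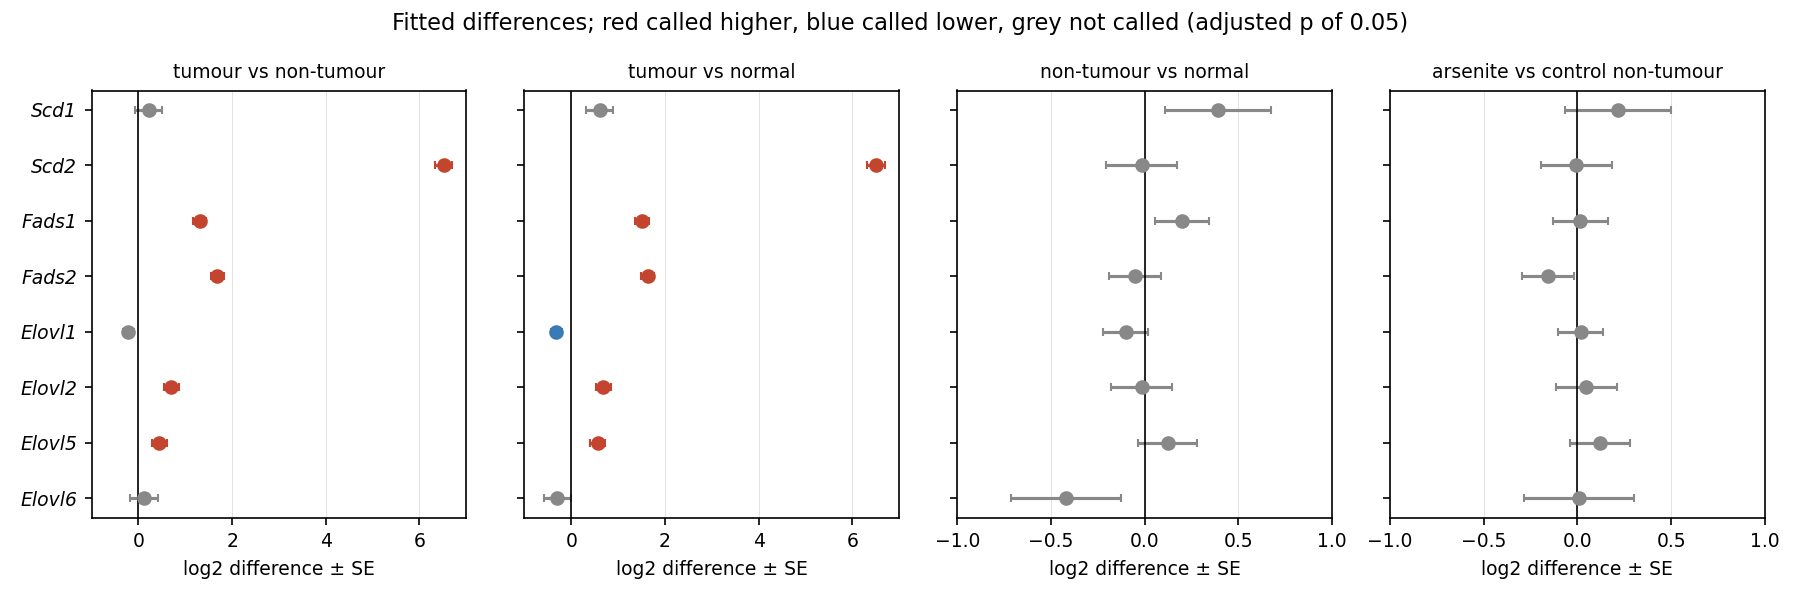
Log2 differences with the standard error of the fit (horizontal axis) for the 8 members (vertical axis) in the 4 comparisons; red is called higher, blue lower and grey not called. Scd2 stands at 6.51 and 6.50 in the tumour panels, Fads1 and Fads2 lie between 1.31 and 1.68, and nothing is called in the panels without tumours, which have a narrower axis.

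Scd2 stood near the array's 75th percentile in all liver that was not tumour. Its log2 values were -0.45, 0.05 and 0.12 in control non-tumour liver, -0.11, -0.03 and -0.11 in normal liver and -0.17, 0.12 and -0.25 in non-tumour liver of the arsenite line. In the 3 tumours they were 6.49, 6.71 and 6.05. The lowest tumour was thus far above the highest of the other 9 arrays, which span 0.57 in all. In arbitrary intensity units, the 9 arrays outside tumours read from 136 to 209 and the tumours read 21930, 22491 and 14996. The group means were 6.41 ± 0.34 (SD, n = 3) in tumours and -0.10 ± 0.20 (SD, n = 3) in non-tumour liver, a log2 difference of 6.51 ± 0.19 (SE; limma adjusted p = 1.08e-08). Against normal liver the difference was 6.50 ± 0.19 (SE; limma adjusted p = 1.15e-08). Both calls held in 24 of 24 alternative settings, with differences from 6.07 to 6.74.

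Scd1, the main desaturase of adult liver, gave a strong signal in every sample and spanned 1.34 outside tumours. It read 7.58, 7.60 and 6.82 in control non-tumour liver, 7.34, 7.47 and 6.67 in normal liver and 7.12, 8.02 and 7.52 in arsenite non-tumour liver. The tumours read 7.73, 7.70 and 7.87, close to each other and inside the range of the non-tumour arrays. The mean was 7.77 ± 0.09 (SD, n = 3) in tumours and 7.55 ± 0.45 (SD, n = 3) in non-tumour liver. The difference of 0.22 had a 95% interval from -0.41 to 0.84 and did not pass the test (limma adjusted p = 0.56). Against normal liver the 3 tumours lay above all 3 arrays, with a difference of 0.61 ± 0.28 (SE; limma adjusted p = 0.10). That difference passed under quantile normalization, median scaling and normexp background correction (adjusted p = 0.043, 0.031 and 0.025), and its adjusted p ranged from 0.025 to 0.33 over all alternatives.

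The change of Scd2 exceeded that of Scd1 by 6.30 ± 0.31 (standard error of the difference of means, n = 3 per group) between non-tumour liver and tumours on the log2 scale. The exact permutation test, 2-sided, gave p = 0.10, the smallest value that 3 against 3 arrays allow. The same excess of Fads2 over Fads1 was 0.38 ± 0.19 (exact permutation p = 0.20) and that of Elovl2 over Elovl5 was 0.26 ± 0.12 (exact permutation p = 0.20). The excess of Elovl5 over Elovl6 was 0.32 ± 0.32 (exact permutation p = 0.50). Of 8 such paralogue tests over the 2 tumour comparisons, none fell below an adjusted p of 0.32. These values compare changes and not levels, since different probes have no common scale.

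**Figure D2:**
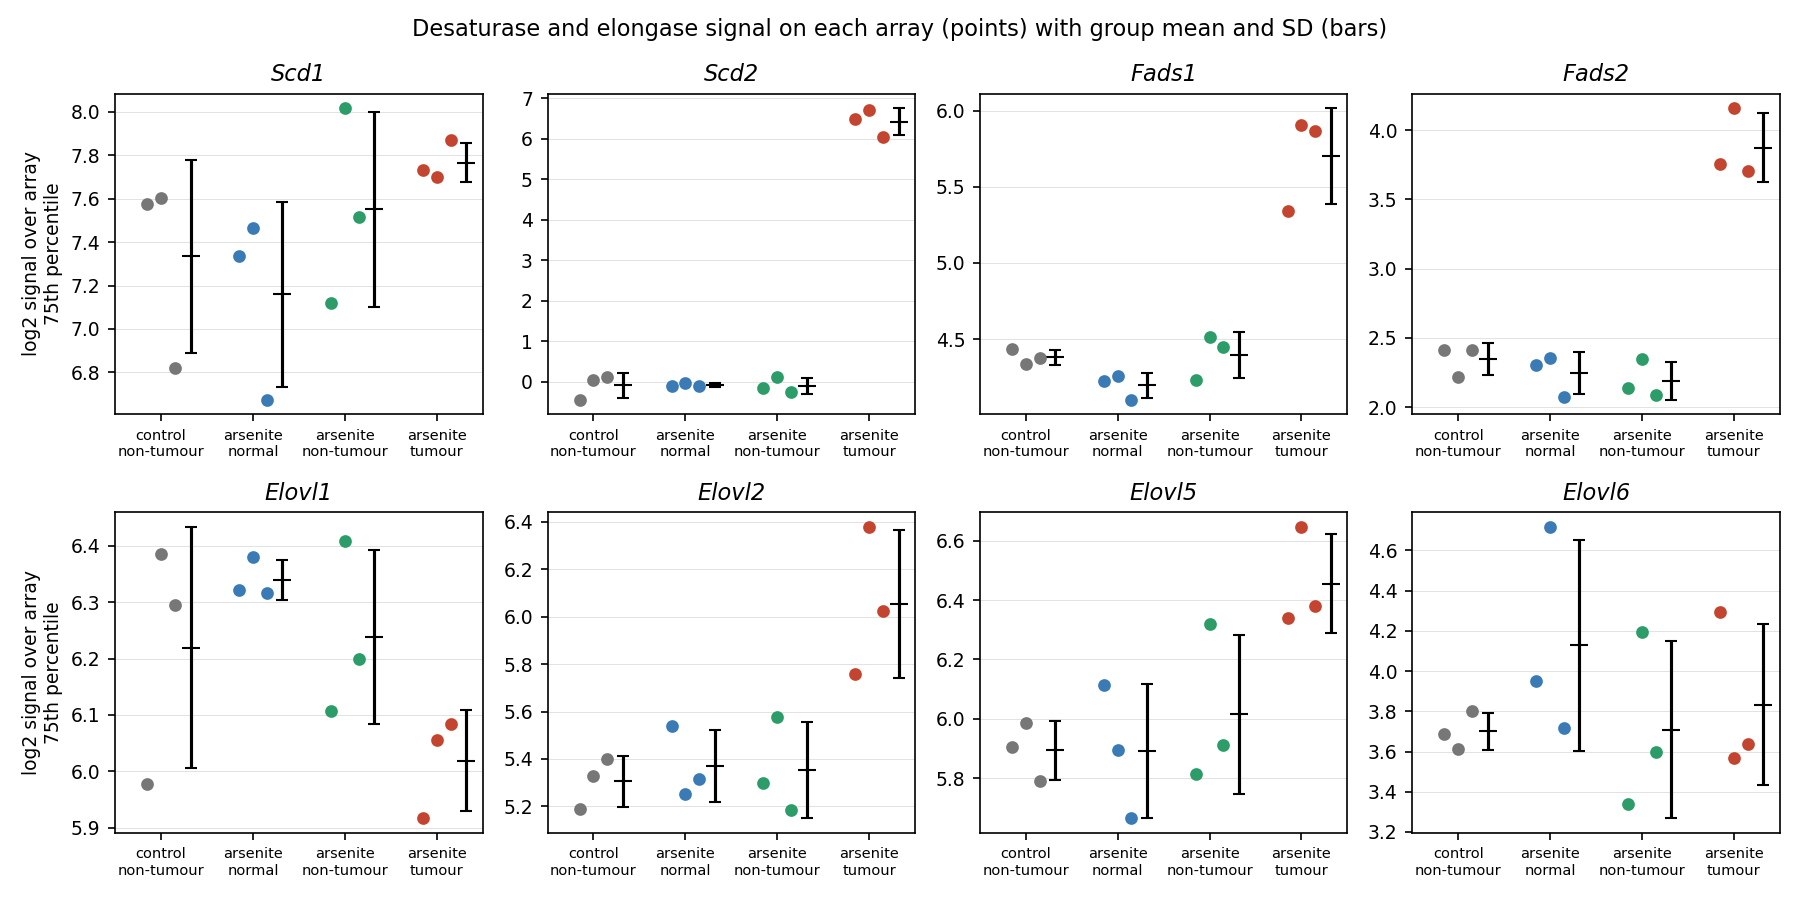
Log2 signal over the array's 75th percentile (vertical axis, own scale per gene) for each array of the 4 groups (horizontal axis), with group mean and SD as bars. Tumours stand clear of the other 9 arrays for Scd2, Fads1, Fads2, Elovl2 and, by a narrow margin, Elovl5, and overlap at least 1 other group for Scd1, Elovl1 and Elovl6.

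Fads1 and Fads2, neighbours on chromosome 19 and consecutive enzymes of polyunsaturated fatty acid synthesis, were both higher in every tumour than in any other sample. Fads1, the delta-5 desaturase, read 4.43, 4.33 and 4.37 in control non-tumour liver, 4.22, 4.26 and 4.10 in normal liver and 4.23, 4.52 and 4.45 in non-tumour liver of the arsenite line. In tumours it read 5.34, 5.90 and 5.86. The tumour mean exceeded non-tumour liver by 1.31 ± 0.15 (SE; limma adjusted p = 4.89e-05) and normal liver by 1.51 ± 0.15 (SE; limma adjusted p = 2.01e-05). Outside tumours, Fads1 kept within 0.41 over 9 arrays.

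Fads2, the delta-6 desaturase at the entry of the pathway, read 2.41, 2.22 and 2.42 in control non-tumour liver, 2.30, 2.36 and 2.07 in normal liver and 2.14, 2.35 and 2.09 in non-tumour liver of the arsenite line. The 3 tumours read 3.75, 4.16 and 3.70. Tumours exceeded non-tumour liver by 1.68 ± 0.14 (SE; limma adjusted p = 7.42e-06) and normal liver by 1.63 ± 0.14 (SE; limma adjusted p = 9.43e-06). A second Fads2 probe, which the array annotation ties to the RefSeq transcript, moved the same way. It ran from 1.59 to 2.01 outside tumours and from 3.43 to 4.18 in tumours, a difference of 1.99 ± 0.19 (SE; limma over all probes, adjusted p = 1.75e-05) against non-tumour liver. For both desaturases and both tumour comparisons, the call held in 24 of 24 alternative settings.

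Elovl2 and Elovl5, the elongases of polyunsaturated fatty acids, rose by less. Elovl2 read 5.19, 5.33 and 5.40 in control non-tumour liver, 5.54, 5.25 and 5.32 in normal liver, 5.30, 5.58 and 5.18 in arsenite non-tumour liver and 5.76, 6.38 and 6.02 in tumours. All 3 tumours lay above the other 9 arrays, the nearest pair being 5.76 and 5.58. The difference was 0.70 ± 0.16 (SE; limma adjusted p = 0.0052) against non-tumour liver and 0.68 ± 0.16 (SE; limma adjusted p = 0.0059) against normal liver.

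Elovl5 read 5.91, 5.99 and 5.79 in control non-tumour liver, 6.12, 5.89 and 5.67 in normal liver, 5.81, 6.32 and 5.91 in arsenite non-tumour liver and 6.34, 6.65 and 6.38 in tumours. The lowest tumour, 6.34, was hardly above non-tumour sample 2 at 6.32. The difference was 0.44 ± 0.16 (SE; limma adjusted p = 0.042) against non-tumour liver and 0.56 ± 0.16 (SE; limma adjusted p = 0.014) against normal liver. The first of these calls was a marginal one. It was lost with median scaling (adjusted p = 0.16), without the filter on dim probes (0.077) and in a fit of the 6 arrays alone (0.080). It was also lost without any 1 of 9 arrays, with adjusted p from 0.050 to 0.15, and held without normal sample 1, normal sample 3 or non-tumour sample 2 (0.038, 0.038 and 0.011). The call against normal liver was lost without normal sample 3 or tumour sample 2 (adjusted p = 0.058 and 0.054).

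Elovl6, which elongates palmitate, and Elovl1, which makes very long saturated chains, gave no call above non-tumour liver. Elovl6 read 3.69, 3.61 and 3.80 in control non-tumour liver, 3.95, 4.72 and 3.72 in normal liver, 3.34, 4.20 and 3.60 in arsenite non-tumour liver and 4.29, 3.57 and 3.64 in tumours. The groups overlap, and the difference between tumour and non-tumour liver was 0.12 with a 95% interval from -0.53 to 0.78 (limma adjusted p = 0.76). Against normal liver it was -0.30 with an interval from -0.95 to 0.36 (limma adjusted p = 0.43). Elovl6 and Scd1 were the members with the widest spread outside tumours, with SDs over the 9 arrays of 0.41 and 0.42, against 0.13 for Fads1, 0.14 for each of Fads2, Elovl1 and Elovl2, 0.18 for Scd2 and 0.19 for Elovl5.

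Elovl1 read 5.98, 6.39 and 6.30 in control non-tumour liver, 6.32, 6.38 and 6.32 in normal liver, 6.11, 6.41 and 6.20 in arsenite non-tumour liver and 5.92, 6.06 and 6.08 in tumours. Tumours lay below normal liver without overlap, by -0.32 ± 0.12 (SE; limma adjusted p = 0.049). The call did not hold under quantile normalization, where the difference was -0.04 (adjusted p = 0.77), or under any of the other 3 scalings or background corrections tried. It held without control non-tumour sample 1 or 2 or non-tumour sample 2 (adjusted p = 0.021, 0.046 and 0.044) and was lost without any 1 of the other 9 arrays (0.053 to 0.14). The second Elovl1 probe gave -0.13 ± 0.11 (SE; limma over all probes, adjusted p = 0.36) in the same comparison. Against non-tumour liver the difference was -0.22 (limma adjusted p = 0.16), and it turned to 0.08 under quantile normalization.

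Neither comparison without tumours gave a call among the members. Between non-tumour and normal liver of the arsenite line 0 of 8 were called in either direction, beside 0% of all genes higher and 0% lower by limma (1227 genes at an unadjusted p under 0.05). Between arsenite and control non-tumour liver, again 0 of 8 were called in either direction, beside 0% of all genes higher and 0.00555% lower by limma (1006 genes at an unadjusted p under 0.05). The largest difference between non-tumour and normal liver was that of Elovl6, at -0.42 with a 95% interval from -1.07 to 0.24. Between the 2 lines it was that of Scd1, at 0.22 with an interval from -0.41 to 0.85. For Fads1 the interval of the line difference ran from -0.31 to 0.34 and for Fads2 from -0.46 to 0.15; the data do not separate values within these intervals.

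The sample with the highest value of its group was counted over the members. Non-tumour sample 2 was the highest of its group for 8 of 8 members, whereas it was the highest for 42.3% of 16940 genes measured on all arrays. Normal sample 2 was the highest of its group for 6 of 8 members and normal sample 3 the lowest for 6 of 8, beside 35.3% and 30.04% of all genes. Tumour sample 2 was the highest for 5 members and tumour sample 1 the lowest for 4, beside 37.9% and 45.3% of all genes. In control non-tumour liver the highest value fell on samples 1, 2 and 3 for 1, 3 and 4 members, with no sample standing out. The order of group means put tumours first for 6 members, second for Elovl6 and last for Elovl1. The 3 groups outside tumours followed no common order.

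Other genes of the same enzyme families moved in both directions. Of 9 desaturases and elongases beyond the members, 6 could be tested. In tumours 2 were higher and 2 lower than in non-tumour liver, beside 16.9% and 29.7% of all genes (list median 0.12, all genes -0.13). Elovl3, an elongase of saturated and monounsaturated chains known for its sex- and time-dependent level in mouse liver, was lower by -6.28 ± 1.20 (SE; limma adjusted p = 0.0017). It ran from -2.55 to -1.83 in tumours and from 0.79 to 5.85 on the other 9 arrays, with non-tumour liver alone spanning 0.79 to 5.81. Elovl7, an elongase of saturated chains, was well above background on 3 of 3 tumours and on no non-tumour array. It was at least 23.9-fold higher in tumours. Elovl7 passed the filter on dim probes only through the tumours, so its call enters the counts and no p-value is given for it. Its fitted difference of 5.13 ran from 2.76 to 5.30 under other scalings and background corrections. Against normal liver, where 1 of 3 arrays was above background, Elovl7 was also counted as higher, and no size is given for that difference.

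Fads3, the third gene of the Fads cluster, fell where Fads1 and Fads2 rose. It ran from 0.03 to 0.47 in tumours and from 1.23 to 1.27 in non-tumour liver, a difference of -1.03 ± 0.20 (SE; limma adjusted p = 0.0020). Fads6 passed with a difference of 0.38 ± 0.14 (SE; limma adjusted p = 0.047), which was lost in a fit of the 6 arrays of the comparison with the sample number as a block (limma adjusted p = 0.11). Its call held in only 8 of 24 alternative settings. The probe named Scd3, which also lists Scd1, did not pass (0.37 ± 0.38), nor did the ceramide desaturase Degs1 (-0.12 ± 0.15). A further Scd3 probe without the Scd1 accession averaged -0.53 in tumours and -0.74 in non-tumour liver. Scd4, Elovl4 and Degs2 did not pass the filter, with no array well above background. Against normal liver 1 gene of the list was higher (Elovl7) and 2 were lower (Elovl3 at -7.17 ± 1.20 and Fads3 at -0.85 ± 0.20).

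Another list held the enzymes that complete each elongation round and the cytochrome b5 chain that hands electrons to the desaturases. Of these 10 genes, all tested, 1 was higher and 4 were lower in tumours than in non-tumour liver, beside 16.9% and 29.7% of all genes (list median -0.28, all genes -0.13). Cyb5a, the cytochrome b5 of the endoplasmic reticulum and direct electron donor of the stearoyl-CoA desaturases, was lower by -1.26 ± 0.12 (SE; limma adjusted p = 2.32e-05). Cyb5b, its mitochondrial form, was lower by -0.86 ± 0.14, and the 3-hydroxyacyl-CoA dehydratase Hacd1 by -0.76 ± 0.07. The cytochrome b5 reductase Cyb5r1 was the gene that rose, by 1.62 ± 0.10, with tumours between 1.49 and 1.60 and non-tumour liver between -0.16 and 0.04. Hacd3 passed narrowly (-0.34, limma adjusted p = 0.045), lost the call in that blocked fit (0.14) and kept it in only 7 of 24 alternative settings. Tecr, Hacd2, Hacd4, Hsd17b12 and Cyb5r3 did not pass, with values from -0.33 to 0.25. Against normal liver 1 was higher and 3 lower. Under quantile normalization 3 genes were called higher against non-tumour liver rather than 1.

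**Figure D3:**
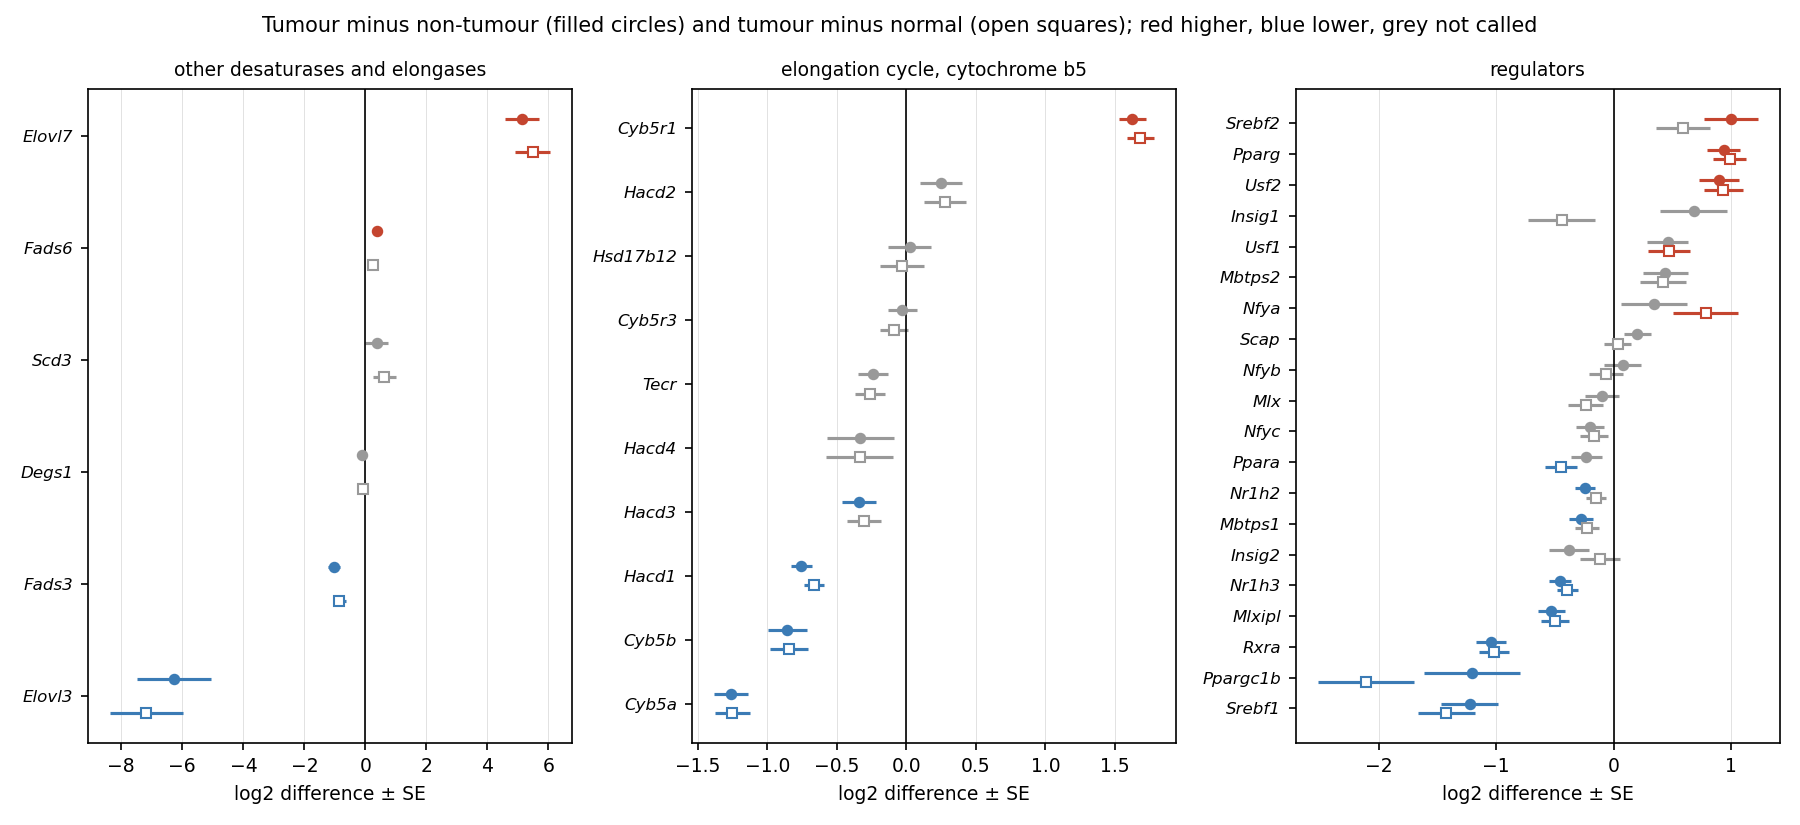
Log2 differences with SE (horizontal axis) of the other desaturases and elongases, the elongation cycle and cytochrome b5 genes, and the regulators (vertical axes). Filled circles are tumour minus non-tumour and open squares tumour minus normal, with red higher, blue lower and grey not called. Elovl7 is drawn at its fitted value, although no non-tumour array was above background for it, and Srebf1 is the lowest regulator against non-tumour liver.

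The list of regulators of these genes held 20, all tested. In tumours 3 were higher and 7 lower than in non-tumour liver, beside 16.9% and 29.7% of all genes (list median -0.15, all genes -0.13). Srebf1, which encodes the SREBP-1 activators of Scd, Fads and Elovl genes, was lower by -1.23 ± 0.24 (SE; limma adjusted p = 0.0020), with tumours from 1.54 to 1.79 and non-tumour liver from 2.61 to 3.02. The carbohydrate response factor Mlxipl (-0.53 ± 0.12), the liver X receptor Nr1h3 (-0.46 ± 0.09) and the retinoid X receptor Rxra (-1.04 ± 0.12) were lower too. Pparg (0.93 ± 0.14), a lipid-storage receptor, Usf2 (0.90 ± 0.17), an E-box factor, and Srebf2 (0.99 ± 0.23), the cholesterol counterpart of Srebf1, were higher. The coactivator gene Ppargc1b, Nr1h2 and Mbtps1 were called lower with adjusted p from 0.034 to 0.043, and the Mbtps1 difference turned to 0.00056 under quantile normalization. The calls of Nr1h2 and Mbtps1 held in only 6 and 4 of 24 alternative settings. Ppargc1b was well above background on only 1 of 3 tumours and 2 of 3 non-tumour arrays. Its call held in 15 of the 21 settings that gave it a value, and its difference of -1.21 became -0.42 under another scaling or background correction. Insig1, itself a target of the SREBPs and the anchor that retains them, was 0.68 ± 0.28 and did not pass (limma adjusted p = 0.072). The count moved with the scaling, to 5 higher and 3 lower under quantile normalization, and to 5 higher and 4 lower in the blocked fit of 6 arrays. Mlxipl and Nr1h3 were not called under quantile normalization, whereas Srebf1, Rxra, Pparg and Srebf2 were called in 24 of 24 settings of this comparison. Against normal liver 4 were higher and 6 lower, among them Srebf1 (-1.43 ± 0.24), Rxra (-1.02 ± 0.12) and Pparg (0.99 ± 0.14). Srebf2 was not called there, with means of 0.85 in tumours and 0.26 in normal liver. Nothing on the list was called in the comparisons without tumours, where Srebf1 differed by -0.20 ± 0.24 and 0.24 ± 0.24, Mlxipl by 0.03 and 0.03, Nr1h3 by 0.06 and -0.03, and Insig1 by -1.12 ± 0.28 and -0.37 ± 0.28.

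Of 13 genes that supply the substrates, 12 could be tested. In tumours 4 were higher and 2 lower than in non-tumour liver, beside 16.9% and 29.7% of all genes (list median 0.42, all genes -0.13). The acyl-CoA synthetase Acsl4, which prefers arachidonate, was higher by 1.56 ± 0.15 (SE; limma adjusted p = 1.91e-05), Acsl5 by 1.20 ± 0.21 and Acsl3 by 1.23 ± 0.31. Acsl1, the main synthetase of hepatocytes, was lower by -1.66 ± 0.13, and the NADPH-producing malic enzyme Me1 by -1.66 ± 0.27. Acaca, which makes malonyl-CoA, passed narrowly (0.54, limma adjusted p = 0.049) and lost the call in the blocked fit of 6 arrays (0.068). The Acaca call held in only 7 of 24 alternative settings. Fasn, the fatty acid synthase, was 0.90 ± 0.48 against non-tumour liver (limma adjusted p = 0.15) and -0.31 ± 0.48 against normal liver (limma adjusted p = 0.62). It ran from 2.11 to 2.29 in tumours, from 0.40 to 2.38 in non-tumour liver and from 1.79 to 3.24 in normal liver, so the groups overlap. Against normal liver 2 were higher (Acsl4 and Acsl5) and 4 lower (Acsl1, Me1, Acss2 and Thrsp, the last by -2.59 ± 0.64).

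Of 19 genes that use or break down the products, 18 could be tested. In tumours 4 were higher and 11 lower than in non-tumour liver, beside 16.9% and 29.7% of all genes (list median -0.38, all genes -0.13). Those lower included Hsd17b4 (-1.43 ± 0.08) and Scp2 (-0.88 ± 0.11), peroxisomal enzymes that shorten very long chains and take part in docosahexaenoate synthesis, and the peroxisomal transporter Abcd3 (-1.22 ± 0.12). The transporter Abcd2 was well above background on 3 of 3 tumours and on no non-tumour or normal array, and was at least 8.00-fold higher than in non-tumour liver. Abcd2 passed the filter on dim probes only through the tumours, so its call enters the counts and no p-value is given for it. Its fitted difference of 4.97 became 1.74 at the lowest under another scaling or background correction. Agpat2 (-1.11 ± 0.12) and Dgat2 (-0.73 ± 0.11), which build triglycerides, were lower. Gpam (1.31 ± 0.26), the first acyltransferase of that pathway, and Mboat7 (0.45 ± 0.09), which places arachidonate in phosphatidylinositol, were higher. Against normal liver the counts were again 4 higher and 11 lower. With the percentile taken over detected probes, 7 rather than 11 were lower than in non-tumour liver.

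**Figure D4:**
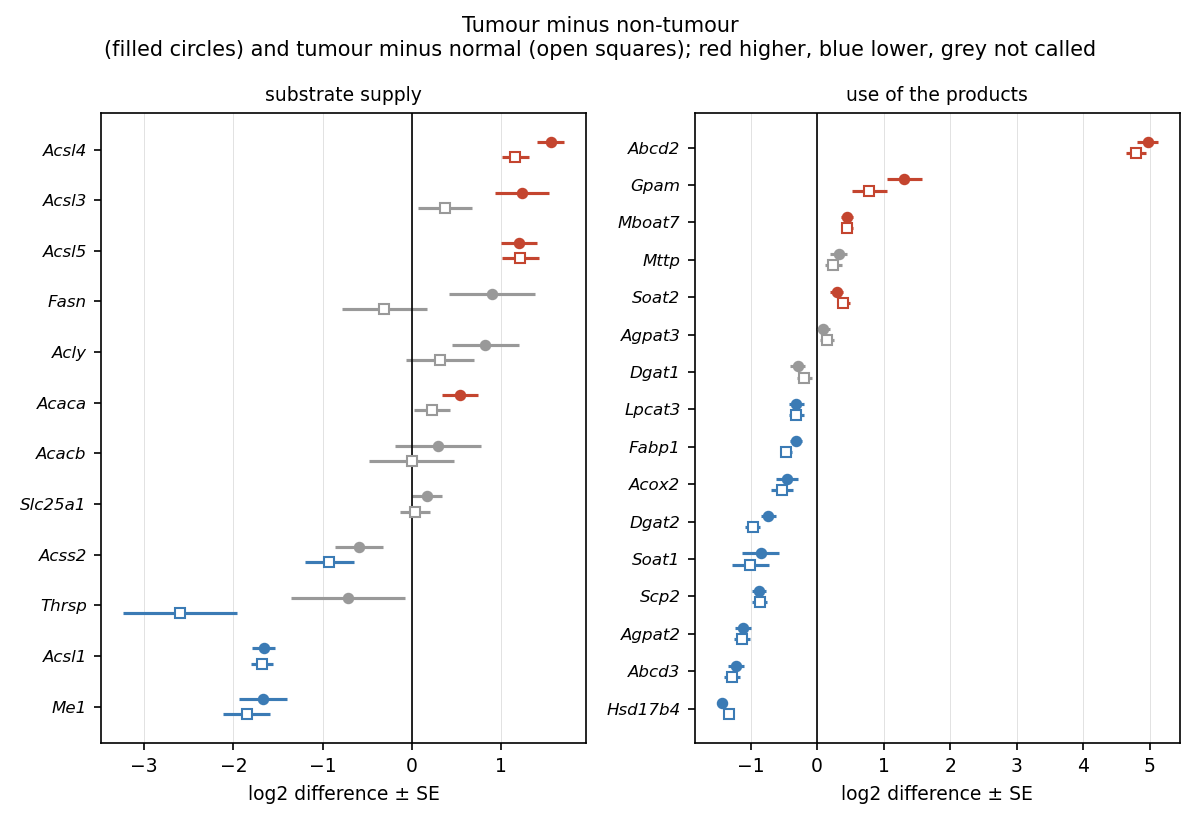
Log2 differences with SE (horizontal axis) of genes that supply substrates and genes that use the products (vertical axes). Filled circles are tumour minus non-tumour and open squares tumour minus normal, with red higher, blue lower and grey not called. Acsl4 and Acsl1 lie on opposite sides at 1.56 and -1.66, and Hsd17b4 stands at -1.43. Abcd2 is drawn at its fitted value, although no non-tumour or normal array was above background for it, and 16 of the 18 tested genes of that list are drawn.

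Genes beside the members moved in both directions. In the order of the reference table on chromosome 19, the tested genes around Scd2 were Bloc1s2 (0.82 ± 0.12), Scd3 (0.37 ± 0.38), Scd2 itself (6.51 ± 0.19), Scd1 (0.22 ± 0.28) and Ndufb8 (-0.86 ± 0.10) for tumour minus non-tumour. Around the Fads genes they were Rab3il1 (-0.28 ± 0.11), Fads3 (-1.03 ± 0.20), Fads2 (1.68 ± 0.14), Fads1 (1.31 ± 0.15) and Fen1 (0.43 ± 0.17). Of the genes next to the elongases, Med8 beside Elovl1 (-0.60 ± 0.11), Tmem14c beside Elovl2 (-1.13 ± 0.10), Smim13 beside Elovl2 (-0.37 ± 0.10), Gcm1 beside Elovl5 (-1.19 ± 0.29) and Enpep beside Elovl6 (-1.94 ± 0.18) were lower, and Cdc20 beside Elovl1 was higher (3.35 ± 0.44). Gclc beside Elovl5 (0.08 ± 0.18) and Egf beside Elovl6 (-0.06 ± 0.24) did not pass.

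For the 2 members whose values span at least 2 on the log2 scale, the tested genes with the most similar centred profile over the 12 arrays were sought by root-mean-square distance. For Scd2 they included Galnt6 (0.26) and Cdkn2b (0.32), beside a median distance of 2.89 over 16939 genes. Tlr1 also came up, but it was well above background only on the 3 tumours, so its distance cannot be read. For Fads2 they were Klhdc8b (0.14), Plpp2 (0.15) and F11r (0.15), beside a median of 0.81. Klhdc8b averaged 0.65 in tumours and -1.09 in non-tumour liver, and Plpp2 5.36 and 3.60.

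Tissue pieces hold several cell types, and fewer cells of a type and less RNA per cell cannot be told apart in these samples. For the marker counts below, the shares over all genes were 16.9% higher and 29.7% lower against non-tumour liver. Against normal liver they were 17.1% and 30.8%. Of 10 hepatocyte markers, all well above background in every group, 1 was higher and 3 lower in tumours than in non-tumour liver, and their summed level relative to the 75th percentile ran from 7337 to 8043 in non-tumour liver and from 6478 to 7845 in tumours. Against normal liver 1 was higher and 5 lower, and the sums in normal liver, 7923 to 9120, lay above all 3 tumours. Of 10 macrophage markers 8 were lower in tumours than in non-tumour liver, with sums of 44.9 to 82.5 against 130 to 174. Against normal liver 6 were lower, with sums of 106 to 145 there. Of 8 endothelial markers 2 were higher and 2 lower (96.4 to 120 against 130 to 149), and of 9 stellate and fibroblast markers 3 were higher and 5 lower. Of 4 bile duct markers tested, Cldn7 was higher and the others were not called. Krt7 and Epcam were well above background on no tumour and no non-tumour array. The sums over the list were 1.96 to 2.95 in non-tumour liver and 3.60 to 6.77 in tumours. Of 7 adipocyte markers 1 could be tested, and it was not called. Adipoq, Plin1, Lep and Cfd were well above background on no array, tumours included, and Retn on 1 array, a tumour. Of 5 lymphocyte markers tested 1 was higher and 1 lower. The part of these shifts in the values of Scd2, Fads1, Fads2, Elovl2 and Elovl5 was not tested.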

How the data were processed

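RNA from 12 liver samples was measured on one-colour arrays. RNA was column-purified, treated with DNase and labelled (100 ng), per the labels. Scanner files deposited by the authors hold, per the file headers, spot intensities, of which the processed signal, after background subtraction, was used, and name Feature Extraction 10.7.3.1, whereas version 12.0.3.1 stands in the submitters' processing notes. The authors' deposited value table gives the processed signal as a ratio to the 75th percentile over all spots of the array, as a check on all arrays showed, and served as an alternative.

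Each array's log2 processed signal was set against the 75th percentile of its spots outside the controls. Spots with an outlier mark were left out and the others averaged per probe. A probe was kept if 1 or more groups had it well above background on each of 3 arrays (24062 probes), and the brightest stood for its gene (18052 genes, between 17959 and 18027 tested per comparison, since left-out spots removed the rest). Probes were named through accession (27235), symbol (3581) or synonym (565) in the GRCm38.p6 gene table, and 24300 kept the name in the file. Comparisons used limma 3.58.1 under R 4.3.3 (lmFit and eBayes, 1 mean per group, all 12 arrays), 2-sided, with Benjamini-Hochberg adjustment over all genes tested; the spread is pooled over all groups, tumours included. Intervals are at 95%. An "at least" fold sets the mean of the brighter group against, per array, the higher of the dim probe's signal and the dimmest signal still well above background. Tables and exact tests used Python 3 with scipy. The fitting code was tested on simulated data.

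Members, gene lists and tests were chosen with earlier results of these data known. Text names all members; per pathway list and comparison, called genes with the smallest p, and every gene of short lists; 5 regulators and synthesis genes throughout; genes beside a member; and the nearest profiles. Srebf2, Ppargc1b, Nr1h2, Mbtps1, Acaca, Scp2, Agpat2, Dgat2, Gpam, Mboat7 and Cldn7 were named after their values were seen. Of the genes that use the products, 2 enter the counts and are not reported here by name. Sample numbers deviated together between tumour and non-tumour liver (correlations of 0.14 to 0.22 for the same number, against -0.16 to -0.01 for other numbers). This was read as pairing there and in no other comparison, although the labels do not state it. The main fit, which gave the errors, intervals and calls above, did not use it. A block for the sample number entered only in alternative fits. Between non-tumour and normal liver the same numbers gave lower values, 0.06 to 0.12, also apart from the -0.08 to 0.01 of other numbers. Alternatives covered scaling, background correction, filter, probe choice, array weights, the value table, blocks and leaving out each array.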

Additional observations from a re-analysis of the deposited data

How the results depend on the processing

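For Scd2, Fads1, Fads2 and, against non-tumour liver, Elovl2, every tumour call held in all 24 alternatives. Against normal liver, 5 members were called higher, and 3 with the sample number as a block in a fit of the 6 arrays, where Elovl2 and Elovl5 had adjusted p of 0.066 and 0.052. Samples of the same number were not treated as paired in that comparison. The 1 member called lower there (Elovl1) became 0 under quantile normalization, median scaling, the percentile of detected probes, normexp, no filter, the mean of all probes and that block, and between 0 and 1 when arrays were left out in turn. With the replicate block in the tumour and non-tumour comparison, no member's call changed; Elovl5 had an adjusted p of 0.032 and Scd2 a difference of 6.51.

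Differences that were not called changed sign as follows. With median scaling, the difference between non-tumour and normal liver became 0.18 for Elovl1, 0.27 for Elovl2, 0.23 for Fads2 and 0.27 for Scd2, and that between the lines 0.089 for Fads2 and 0.24 for Scd2. With array weights, the former became 0.023 for Elovl2, 0.0029 for Fads2 and 0.0032 for Scd2, and the latter -0.070 for Elovl1. With normexp, it was 0.048 for Elovl2 between non-tumour and normal liver, and between the lines -0.0069 for Elovl1 and 0.048 for Scd2. Quantile normalization gave 0.0059 for Scd2 between the lines and 0.080 for Elovl1 between tumour and non-tumour liver. For Mbtps1, called lower at -0.28 against non-tumour liver, it gave 0.00056.

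Leaving out 1 array at a time, the line difference ran from -0.10 to 0.10 for Elovl1, -0.065 to 0.13 for Elovl2, -0.032 to 0.22 for Elovl5, -0.23 to 0.20 for Elovl6, -0.043 to 0.099 for Fads1, -0.039 to 0.43 for Scd1 and -0.18 to 0.10 for Scd2. Non-tumour minus normal ran from -0.13 to 0.069 for Elovl2, -0.030 to 0.23 for Elovl5, -0.14 to 0.0022 for Fads2 and -0.13 to 0.061 for Scd2. Tumour minus non-tumour ran from -0.11 to 0.37 for Elovl6 and from -9.53e-05 to 0.45 for Scd1, and tumour minus normal from -0.52 to 9.23e-05 for Elovl6. A fit with the slide as a block was not run, since each slide holds whole groups; the line comparison lies within 1 slide. Causes were not tested. The number of arrays, 3 per group, limits the precision throughout.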
